A study of Homo sapiens with 30 samples.

Results

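The comparison addresses whether deleting a helix from FOXP2 changed gene expression differently in cells that had received CHIR99021 (CHIR) than in cells that had not. The quantity described is a 2-by-2 interaction on the log2 scale: the difference between dhelix FOXP2 and WT FOXP2 cells with CHIR, minus the same difference without CHIR. It uses 20 of the 30 libraries of the series, chosen by their labels, 5 in each of 4 groups. The cells of the first group expressed FOXP2 lacking residues 264 to 272 (dhelix FOXP2) and had CHIR. Those of the second expressed full-length FOXP2 (WT FOXP2) and had CHIR. The third group had dhelix FOXP2 without CHIR, and the fourth WT FOXP2 without CHIR. All 4 groups were U2OS cells, a human osteosarcoma line, and all had received a FOXP2 plasmid, 500 ng by lipofection for 48 h, so none of the 4 shows the cells without added FOXP2. CHIR was added at 5 µM 72 h ahead of transfection. The genotype label of WT FOXP2 + CHIR replicate 1 does not state that its FOXP2 was wild type, and that library was placed by its title.

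FOXP2 is a forkhead transcription factor that binds DNA as a dimer and can repress or activate its target genes. CHIR inhibits glycogen synthase kinase 3, the kinase that marks β-catenin for degradation, so β-catenin accumulates, enters the nucleus and activates Wnt target genes with TCF/LEF factors. AXIN2, a feedback inhibitor of the pathway, and LEF1, a DNA-binding partner of β-catenin, are commonly read as its transcriptional output.

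Total counts per library were 15987830 to 19701481 with dhelix FOXP2 + CHIR, 17365697 to 24195383 with WT FOXP2 + CHIR, 22096650 to 29466652 with dhelix FOXP2 and 16858604 to 28132145 with WT FOXP2. Levels are given in CPM, counts scaled to a common library total with TMM factors. Errors after ± are standard errors for log2 differences and SDs over 5 libraries for levels. The labels call the 5 libraries of a group biological replicates without saying whether they came from separate cultures. The p-values therefore set differences against the spread between libraries of a group, which may not be a spread between cultures. That spread was estimated over all 30 libraries of the series. A gene was called where edgeR's quasi-likelihood test gave a Benjamini-Hochberg adjusted p under 0.05 over the 18485 genes tested, and "rose", "fell", "positive" and "negative" are used of calls. The labels name the cells osteosarcoma epithelial cells. The mesenchymal marker VIM averaged 1270, 1370, 2070 and 2580 CPM in the 4 groups in the order above, the keratin KRT18 374, 372, 448 and 480 CPM, and the epithelial cadherin CDH1 0.649, 0.714, 1.34 and 1.31 CPM. SPARC and COL1A1 were present, at 545 to 1110 and 171 to 234 CPM over the group means, whereas the late osteoblast genes BGLAP, IBSP and SP7 were at or near 0. Summed levels of 16 epithelial markers were 595 to 643, 566 to 632, 666 to 712 and 661 to 695 CPM in the same group order. Over 14 blood cell markers the sums were 92 to 112, 70.7 to 74.9, 14.1 to 16.4 and 15 to 17.1 CPM, with GZMB at a mean of 85.3, 52.8, 1.55 and 0.707 CPM ITGAM, an integrin subunit gene, at 9.24, 16.5, 5.58 and 10.9 CPM, and CD3D at 3.67, 2.18, 5.49 and 2.13 CPM. CD34 was at 0.377 to 2.4 CPM over the group means, and the other markers, the pan-leukocyte gene PTPRC among them, were under 1 CPM in every group. Over 10 endothelial markers they were 80.9 to 92.9, 55.8 to 69.2, 78.1 to 81 and 55.1 to 63.8 CPM.

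FOXP2 itself was abundant in every library and unequal between the groups. It was at 11890 to 14220 CPM with dhelix FOXP2 + CHIR and 14030 to 16300 CPM with WT FOXP2 + CHIR, a ratio of group means of 0.881. In cells without CHIR the level was 4650 to 6352 CPM with dhelix FOXP2 and 5900 to 7798 CPM with WT FOXP2, a ratio of 0.752. The ranges of the constructs overlapped in both arms. The interaction for FOXP2 was 0.23 ± 0.12 and not called (edgeR adjusted p = 0.219), but it was called without a filter on low counts (0.168, adjusted p = 0.0387). Between the constructs FOXP2 was called without CHIR (-0.41 ± 0.08, edgeR adjusted p = 0.000338) and not with CHIR (-0.18 ± 0.08, adjusted p = 0.106). It rose with CHIR under dhelix FOXP2 (1.34 ± 0.09) and WT FOXP2 (1.11 ± 0.09). The amount of FOXP2 RNA therefore moved with the drug, and with the construct where CHIR was absent. Its part in the results below was not tested beyond a fit with the FOXP2 level as a covariate. That fit made 4015 calls, against 4291 in the same 20 libraries without the covariate.

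Among dhelix FOXP2 libraries replicate 5, and among WT FOXP2 + CHIR libraries replicate 4, stood apart in abundant structural RNA. RNA28S5, a 28S ribosomal RNA gene, was at 461, 400, 438, 375 and 473 CPM in the dhelix FOXP2 + CHIR libraries. It was at 469, 547, 665, 4360 and 507 CPM in the WT FOXP2 + CHIR libraries. It was at 271, 462, 270, 281 and 6230 CPM with dhelix FOXP2 and 509, 494, 551, 512 and 483 CPM with WT FOXP2. The same pair of libraries was highest for RN7SL1 and RN7SL2, the RNA of the signal recognition particle, and for RN7SK, an RNA that holds back the elongation factor P-TEFb. These 4 genes had the largest negative interactions among genes at 1 CPM or more in every group, -5.82 ± 1.17 for RN7SL2, -4.78 ± 1.2 for RN7SL1, -3.67 ± 1.24 for RN7SK and -3.16 ± 1.06 for RNA28S5 (edgeR adjusted p = 0.0013, 0.00863, 0.0485 and 0.0462). Without both libraries RN7SL2 was at -3.44 and RN7SL1 at -1.7, still called, while RN7SK was at -0.47 (adjusted p = 0.555) and RNA28S5 at 0.318 (adjusted p = 0.617), no longer called. With dhelix FOXP2 replicate 5 alone left out the 4 stood at -4.82, -3.13, -1.49 and -0.969, and with WT FOXP2 + CHIR replicate 4 alone left out at -4.47, -3.38, -2.68 and -1.91, and in both cases RN7SK and RNA28S5 lost their calls. These 2 calls were marginal: over all settings tried RN7SK was not called in 19 of 30 and RNA28S5 in 16 of 29. RN7SL1 and RN7SL2 are near-identical copies that share reads, so the split of counts between them is uncertain.

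**Figure D1:**
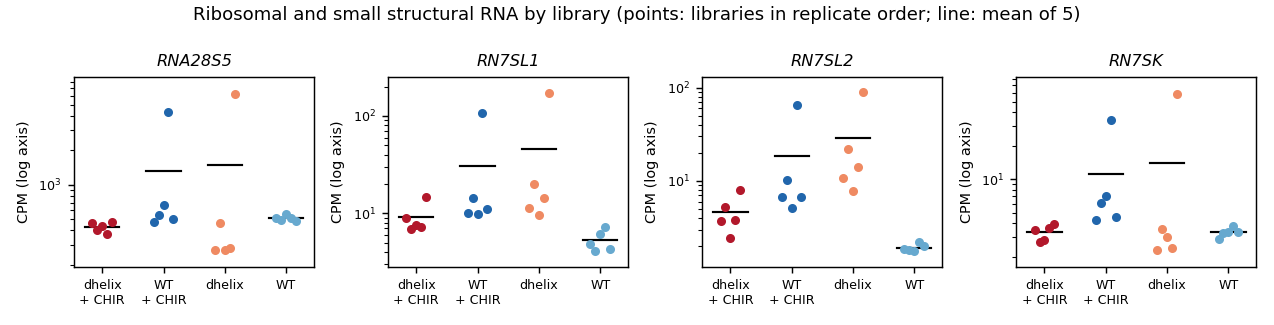
Levels of RNA28S5, RN7SL1, RN7SL2 and RN7SK in CPM (log axis) in the 20 libraries, with 1 point per library and a line at the mean of 5. In each panel the highest points belong to dhelix FOXP2 replicate 5 and WT FOXP2 + CHIR replicate 4 (RNA28S5 at 6230 and 4360 CPM).

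CHIR changed the response to the helix deletion in a minority of genes and mostly by modest amounts. The interaction was called for 2626 of 18485 genes (14.2%), 1649 positive (8.92%) and 977 negative (5.29%). Only 180 calls were of at least 2-fold, 57 positive and 123 negative, and the median absolute interaction of the called genes was 0.313. The split by sign depended on scaling: upper-quartile scaling gave 1292 positive and 1215 negative calls, so 51.5% positive against 62.8% with TMM. Without a filter on low counts it was 659 positive and 1510 negative. With CHIR, dhelix FOXP2 differed from WT FOXP2 in 5656 genes (30.6%), 3077 higher and 2579 lower. Without CHIR the constructs differed in 6589 genes (35.6%), 3124 higher and 3465 lower. No library was used in both arms, and across the genes tested their log2 differences had a Pearson r of 0.485 and a Spearman rho of 0.463, as a description only, since genes are not independent replicates. Of the 474 genes that differed at least 2-fold without CHIR, 280 were called in the same direction with CHIR and 1 in the opposite direction. Of those 474, 136 had an interaction call, against 79 of the 399 genes that differed at least 2-fold with CHIR; both sets were chosen on a term of the interaction, so these counts are descriptions. Over all interaction calls the absolute difference was smaller with CHIR in 1518 genes and larger in 1108.

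**Figure D2:**
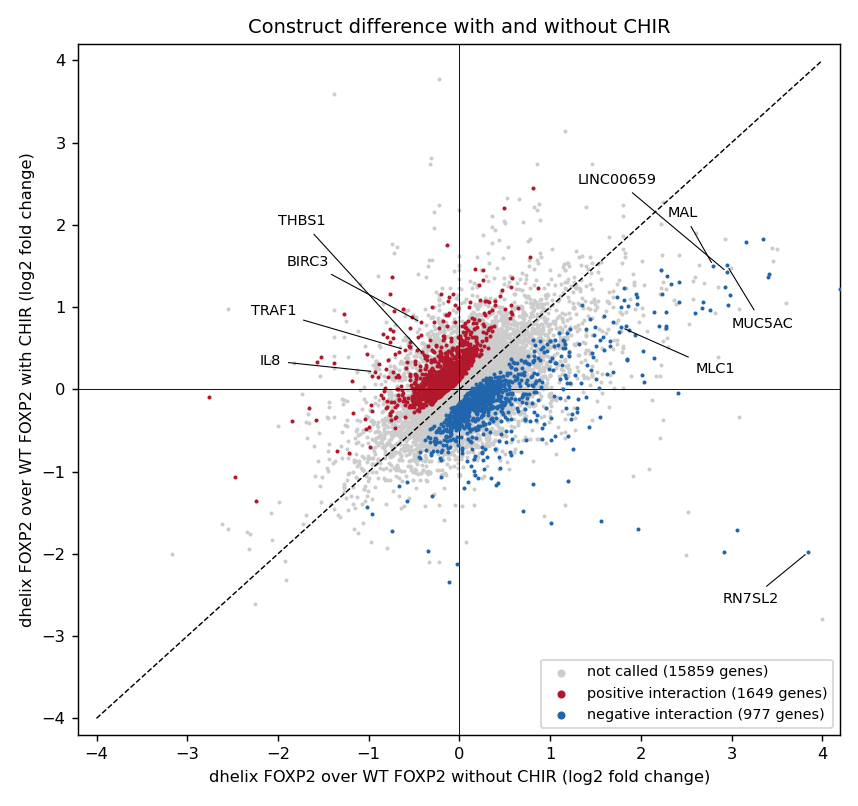
Log2 difference between dhelix FOXP2 and WT FOXP2 with CHIR (vertical) against the same difference without CHIR (horizontal), with 1 point per gene and the line of equality dashed; 2 genes lie outside the axes. Red points are the 1649 genes with a positive and blue points the 977 with a negative interaction.

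Read by arm, the largest class of positive interactions held 744 genes that were lower with dhelix FOXP2 than with WT FOXP2 when CHIR was absent and were not called with CHIR. Another 505 were higher with dhelix FOXP2 in CHIR-treated cells and not called without CHIR, and 184 crossed over, higher with CHIR and lower without it. The remaining positive calls were 110 lower in both arms, 66 higher in both and 40 called in neither. Among negative interactions, 406 genes were higher with dhelix FOXP2 without CHIR and not called with it, and 314 were lower with CHIR and not called without it. A further 120 were higher in both arms, 53 lower in both, 43 crossed over and 41 were called in neither. A missing call in an arm does not show that the constructs were alike there.

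Several genes induced by cytokines and NF-κB were higher with dhelix FOXP2 in the presence of CHIR and lower in its absence. NF-κB is a transcription factor family that cytokine receptors activate and that induces chemokines, survival factors and its own inhibitor. Of 25 genes tested in this list, 10 were positive and 0 negative (40% positive against 8.92% of all genes), with a median interaction of 0.232 against 0.0078 over all genes. With CHIR 12 of the 25 rose and 9 fell with dhelix FOXP2 relative to WT FOXP2 (16.6% and 14% of all genes). Without CHIR 1 rose and 17 fell (16.9% and 18.7% of all genes). The 10 were TRAF1, IL8, BIRC3, NFKBIA, IL1A, SOD2, IL24, NFKB1, CSF2 and CCL20. All lists were drawn up with earlier results of these data known, so their counts are not independent of those results. With no filter on low counts 6 of the 25 were positive, and with offsets for transcript length and GC content 13 were, with 0 negative in both cases. Over all genes 659 of 39995 and 1788 of 17939 were positive in these settings.

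TRAF1 encodes an adaptor of TNF receptors. It was at 79.6, 82.5, 82.1, 80.2 and 91.2 CPM in dhelix FOXP2 + CHIR libraries and 60.2, 58.4, 61.9, 58.4 and 58.4 CPM in WT FOXP2 + CHIR libraries. Its level without CHIR was 36.4, 40.7, 38.4, 36.4 and 37.7 CPM with dhelix FOXP2 and 48.1, 60.1, 56.8, 64.4 and 57.7 CPM with WT FOXP2. The constructs did not overlap in either arm and their order turned round. The difference was 0.48 ± 0.05 with CHIR and -0.60 ± 0.05 without, and the interaction was 1.08 ± 0.07 (edgeR adjusted p = 1.06e-12). In dhelix FOXP2 cells CHIR itself went with a rise in TRAF1 of 1.13 ± 0.05, and in WT FOXP2 cells it left no call (0.05 ± 0.05, adjusted p = 0.443).

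BIRC3, an inhibitor of apoptosis and ubiquitin ligase of the TNF receptor complex, had the largest interaction of the list. It was at 45.8, 50.4, 46.6, 50.5 and 52.2 CPM with dhelix FOXP2 + CHIR and 31.9, 31.8, 24.4, 26.1 and 24.8 CPM with WT FOXP2 + CHIR. When CHIR was absent it stood at 27.2, 26.3, 23.3, 27.2 and 27 CPM with dhelix FOXP2 and 35.4, 36.4, 32.2, 34.5 and 36.8 CPM with WT FOXP2. Again the constructs did not overlap in either arm and swapped order, with an interaction of 1.24 ± 0.11 (edgeR adjusted p = 1.09e-09). IL8 (now named CXCL8), a neutrophil-attracting chemokine, was at 78.3, 87.6, 85.5, 86.4 and 88.8 CPM with dhelix FOXP2 + CHIR and 78.7, 73.7, 73.9, 74.8 and 66 CPM with WT FOXP2 + CHIR. It was at 43.9, 52.9, 44.5, 41.5 and 46.1 CPM with dhelix FOXP2 and 82, 88.8, 80.3, 98.4 and 87.5 CPM with WT FOXP2. The dhelix FOXP2 libraries without CHIR were thus the low ones, and with CHIR the constructs overlapped by a single pair of libraries. Its interaction was 1.15 ± 0.09 (edgeR adjusted p = 8.12e-11). NFKBIA, the inhibitor that retains NF-κB in the cytoplasm and is itself an NF-κB target, averaged 66.4 ± 2.94, 59.5 ± 1.74, 42.6 ± 1.70 and 51.7 ± 1.53 CPM in the 4 groups (interaction 0.44 ± 0.06, edgeR adjusted p = 4.64e-06). In cells without a FOXP2 plasmid TRAF1 was at 3.07 ± 0.348 CPM with CHIR and 0.975 ± 0.121 CPM in mock cells, and IL8 at 3.7 ± 0.925 and 0.373 ± 0.128 CPM, so all 4 groups lay above them. Levels are of bulk RNA, in which fewer cells expressing a gene and less RNA per cell cannot be told apart.

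The promoters of BIRC3 and CXCL8 (the IL8 of the count table) are shown because these genes led the NF-κB group, and that of MAL as an example of the negative calls described further down. Each is the 250 bases before the annotated start on the plus strand, from RefSeq on GRCh38.p14, at chr11:102317234-102317483, chr4:73740319-73740568 and chr2:95025458-95025707. Capitals mark matches to 4 motifs searched on both strands: NF-κB (GGNNTTTCC), AP-1 (TGANTCA), forkhead (TGTTTAC) and TCF/LEF (CTTTGAT).
BIRC3: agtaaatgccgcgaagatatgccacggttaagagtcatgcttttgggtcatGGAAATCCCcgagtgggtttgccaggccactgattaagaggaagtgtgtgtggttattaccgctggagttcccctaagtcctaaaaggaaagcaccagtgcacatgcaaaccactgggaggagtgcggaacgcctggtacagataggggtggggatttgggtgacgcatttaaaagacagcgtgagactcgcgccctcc
CXCL8: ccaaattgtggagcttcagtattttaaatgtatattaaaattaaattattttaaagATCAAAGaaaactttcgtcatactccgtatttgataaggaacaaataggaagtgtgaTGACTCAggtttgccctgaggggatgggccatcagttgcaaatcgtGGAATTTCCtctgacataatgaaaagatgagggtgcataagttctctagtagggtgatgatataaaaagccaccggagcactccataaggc
MAL: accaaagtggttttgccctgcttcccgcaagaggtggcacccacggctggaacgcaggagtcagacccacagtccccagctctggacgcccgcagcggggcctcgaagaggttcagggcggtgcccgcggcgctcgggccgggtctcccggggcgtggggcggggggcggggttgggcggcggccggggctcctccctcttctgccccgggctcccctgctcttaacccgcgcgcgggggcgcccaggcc
BIRC3 held an NF-κB match beginning at -199 from the start. CXCL8 held a TCF/LEF match at -194, an AP-1 match at -137 and an NF-κB match at -91, none overlapping another. MAL held none of the 4. Over all 35116 promoter windows of the same length the motifs occurred in 5.48%, 6.57%, 2.98% and 2.26%. In windows of genes with a positive interaction (1269 of 1649 matched by symbol) the shares were 7%, 5.97%, 2.2% and 1.32%, and in those of genes with a negative one (678 of 977 matched) 5.35%, 4.44%, 2.53% and 2.12%. Tested genes without a call had 5.6%, 4.99%, 2.23% and 1.45%. A match is a run of letters and not evidence of binding.

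**Figure D3:**
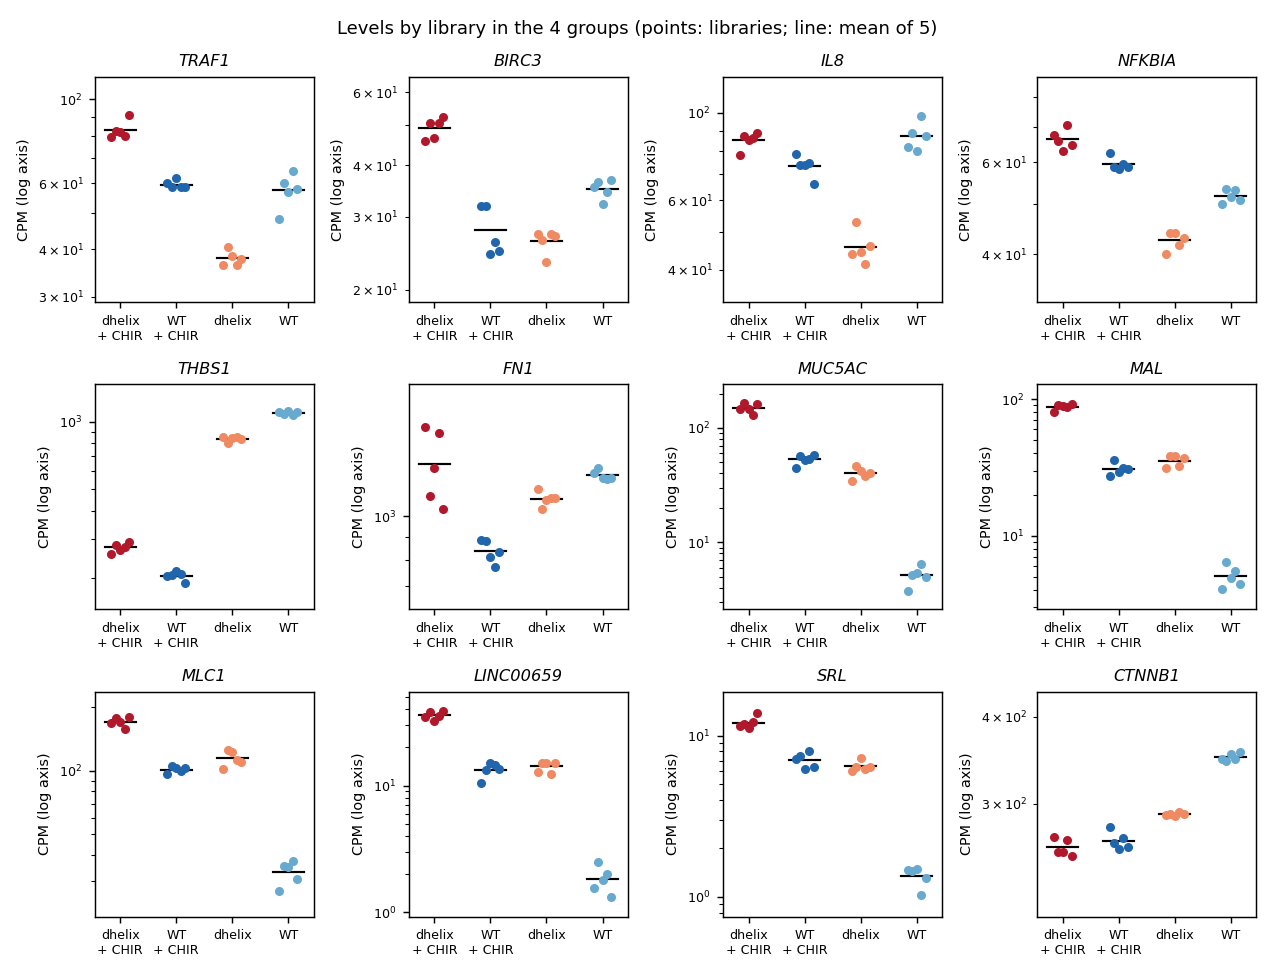
Levels in CPM (log axis) of 12 named genes in the 4 groups, with 1 point per library and a line at the mean of 5. TRAF1 and BIRC3 are highest with dhelix FOXP2 + CHIR while dhelix lies below WT without CHIR; MUC5AC and MAL are higher with dhelix in both arms, with the wider gap on this log axis without CHIR.

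Extracellular matrix genes leaned the same way, led by adhesive glycoproteins. Of 40 tested, 9 were positive and 1 negative (22.5% and 2.5%, against 8.92% and 5.29% of all genes). Their median interaction was 0.129. THBS1, the matrix glycoprotein thrombospondin-1, had the smallest p of all genes. It was at 256, 281, 267, 277 and 291 CPM with dhelix FOXP2 + CHIR and 205, 206, 216, 208 and 190 CPM with WT FOXP2 + CHIR. Without CHIR it was at 858, 803, 842, 855 and 839 CPM with dhelix FOXP2 and 1110, 1080, 1120, 1070 and 1110 CPM with WT FOXP2. None of the 4 groups overlapped another, and CHIR went with lower THBS1 under both constructs, at -1.61 ± 0.03 with dhelix FOXP2 and -2.42 ± 0.03 with WT FOXP2. The interaction was 0.81 ± 0.05 (edgeR adjusted p = 1.1e-14). FN1, the adhesive matrix protein fibronectin, was at 1580, 1110, 1280, 1530 and 1040 CPM with dhelix FOXP2 + CHIR and 885, 880, 811, 773 and 832 CPM with WT FOXP2 + CHIR. It was at 1150, 1040, 1090, 1100 and 1100 CPM with dhelix FOXP2 and 1250, 1280, 1220, 1210 and 1220 CPM with WT FOXP2 (interaction 0.82 ± 0.10, edgeR adjusted p = 2.17e-06). The dhelix FOXP2 + CHIR libraries were spread widely for FN1 and all lay above the WT FOXP2 + CHIR ones. TNC, tenascin-C, had an interaction of 0.51 ± 0.05 and FBN2, a fibrillin, one of 0.34 ± 0.04. NID1, a basement membrane linker, was the negative member (-0.21 ± 0.05), higher with dhelix FOXP2 in both arms.

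Matrix proteases and their inhibitors gave 7 positive and 1 negative of 23 (30.4% and 4.35%, against 8.92% and 5.29% of all genes). Their median was 0.114, and 4 were positive without WT FOXP2 replicate 3. The metalloproteinase inhibitor gene TIMP2 was positive (0.50 ± 0.07), as were the protease inhibitor gene SERPINE2 (0.30 ± 0.05) and PLAU, the urokinase gene (0.33 ± 0.08), and the collagenase gene MMP1 was negative (-0.40 ± 0.13). Of 22 smooth muscle and actin cytoskeleton genes 6 were positive and 0 negative (27.3% positive, median 0.163). Among the 6 were CSRP1, VCL, MYH9 and ACTN1 at 0.17 to 0.28. These calls were small: without a filter on low counts VCL, MYH9 and ACTN1 had adjusted p = 0.398, 0.121 and 0.15, and with length and GC offsets CSRP1 and VCL had adjusted p = 0.0647 and 0.803. Without a filter 3 of the 22 were positive and 2 negative (659 and 1510 of 39995 over all genes). In the TGF-β, SMAD and YAP target list 8 of 30 were positive and 4 negative (26.7% and 13.3%, median 0.0481). FSTL1, a secreted glycoprotein induced by TGF-β, averaged 148 ± 6.88, 101 ± 2.46, 362 ± 8.02 and 354 ± 9.02 CPM in the 4 groups, so the constructs differed with CHIR (0.54 ± 0.03) and had no call without it (0.03 ± 0.03, adjusted p = 0.48). Its interaction was 0.51 ± 0.05 (edgeR adjusted p = 6.11e-10). The BMP-induced inhibitors of differentiation went the other way, ID1 at -0.36 ± 0.07 (adjusted p = 0.0558 with length and GC offsets), ID3 at -0.29 ± 0.08 and ID4 at -0.50 ± 0.17.

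Wnt pathway genes were moved in small numbers, and the 2 genes most used as its readout were not called. AXIN2 was at 75.6, 60.7, 57.9, 67.5 and 50.1 CPM with dhelix FOXP2 + CHIR and 42.5, 57.9, 46.6, 48 and 50.7 CPM with WT FOXP2 + CHIR. In cells without CHIR the level was 9.94, 9.06, 10.1, 11.2 and 9.56 CPM with dhelix FOXP2 and 8.72, 8.87, 7.25, 8.55 and 7.11 CPM with WT FOXP2. The constructs overlapped with CHIR and not without it. AXIN2 was higher with dhelix FOXP2 in both arms, by 0.35 ± 0.08 with CHIR and 0.30 ± 0.12 without (edgeR adjusted p = 0.00181 and 0.0456), and its interaction was 0.04 ± 0.15 (adjusted p = 0.892), with a sign that changed between settings. LEF1 averaged 86.2 ± 8.02, 81.6 ± 4.96, 30.4 ± 2.28 and 30.2 ± 1.95 CPM in the 4 groups, with overlapping constructs in both arms and an interaction of 0.07 ± 0.08 (adjusted p = 0.606). Both genes rose with CHIR under each construct, AXIN2 by 2.65 ± 0.10 with dhelix FOXP2 and 2.6 ± 0.11 with WT FOXP2, and LEF1 by 1.51 ± 0.06 and 1.43 ± 0.06. Of 27 Wnt targets and feedback genes 3 were positive and 0 negative (11.1%, close to the 8.92% of all genes): KREMEN1, a DKK co-receptor (0.43 ± 0.10), SFRP1, a secreted antagonist (0.26 ± 0.07), and EPHB3, an ephrin receptor (0.45 ± 0.13). SFRP1 and EPHB3 had no call without a filter on low counts (adjusted p = 0.156 and 0.0553). In that setting 2 genes of the list were positive and 1 negative.

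Of 43 Wnt components 7 were positive and 0 negative (16.3% positive against 8.92% of all genes). They were the receptors FZD8 and FZD7, the ligand WNT5A with its carrier WLS, and CTNNB1, GSK3B and CSNK1A1 of the β-catenin destruction machinery. CTNNB1, which encodes β-catenin, was at 269, 256, 256, 266 and 252 CPM with dhelix FOXP2 + CHIR and 278, 263, 258, 268 and 260 CPM with WT FOXP2 + CHIR. It was at 289, 290, 288, 292 and 290 CPM with dhelix FOXP2 and 348, 346, 353, 348 and 356 CPM with WT FOXP2. With CHIR the constructs overlapped (-0.03 ± 0.03, adjusted p = 0.458), and without CHIR they did not (-0.27 ± 0.03). Its interaction was 0.24 ± 0.04 (edgeR adjusted p = 4.14e-05; 0.0562 without a filter on low counts). FZD8, a Frizzled receptor, was at 18, 19.2, 18.8, 17.4 and 20 CPM with dhelix FOXP2 + CHIR and 11.7, 12.8, 12, 13.2 and 11.7 CPM with WT FOXP2 + CHIR. Its level without CHIR was 16.9, 17.8, 16.1, 14.8 and 16.6 CPM with dhelix FOXP2 and 19.4, 21.5, 23.2, 19.9 and 19 CPM with WT FOXP2. The order of the constructs turned round without overlap in either arm, and FZD8 had the largest interaction of the list (0.92 ± 0.11, edgeR adjusted p = 3.13e-07). GSK3B, which encodes a target of CHIR, was at 0.18 ± 0.04 and lost its call with no filter and with length and GC offsets (adjusted p = 0.413 and 0.556). WLS was at 0.19 ± 0.05 and lost its call with no filter (adjusted p = 0.393), and narrowly without WT FOXP2 + CHIR replicate 2, dhelix FOXP2 replicate 5 or WT FOXP2 replicate 1 (adjusted p = 0.0511, 0.0513 and 0.0599). The list had 4 positive calls without dhelix FOXP2 replicate 5 or without WT FOXP2 replicate 1. With upper-quartile scaling 5 of the 43 were positive and 0 negative. Without a filter on low counts 2 were positive and 1 negative (659 and 1510 of 39995 over all genes).

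Genes described elsewhere as FOXP2 targets, with the FOXP family, gave 7 positive and 1 negative of 18, with a median of 0.24. The shares were 38.9% and 5.56%, against 8.92% and 5.29% of all genes. With CHIR 4 of the 18 rose with dhelix FOXP2 and 2 fell (16.6% and 14% of all genes). Without CHIR 1 rose and 7 fell (16.9% and 18.7% of all genes). VLDLR, a reelin receptor (0.40 ± 0.07), DISC1, a neurodevelopmental scaffold (0.74 ± 0.16), MET, the receptor of hepatocyte growth factor (0.27 ± 0.06), and ROBO1, a receptor for Slit ligands (0.35 ± 0.09), were among the positive ones. ROBO1 was not called with length and GC offsets (adjusted p = 0.131). FOXP1, the closest relative of FOXP2, was positive too (0.51 ± 0.13). Of 42 axon guidance and neuronal genes 12 were positive and 3 negative (28.6% and 7.14%, median 0.157). SEMA3A, a secreted repulsive cue, was at 31.8, 29.2, 29, 32.7 and 26.5 CPM with dhelix FOXP2 + CHIR and 24.5, 25.6, 20.6, 22 and 24.3 CPM with WT FOXP2 + CHIR. It was at 10.4, 11.2, 10.8, 10.8 and 11.6 CPM with dhelix FOXP2 and 15.8, 15.2, 14.6, 14.5 and 16.7 CPM with WT FOXP2. The constructs did not overlap in either arm and changed order (interaction 0.84 ± 0.14, edgeR adjusted p = 0.000133). Its receptor components NRP1 (0.42 ± 0.07) and PLXNA2 (0.46 ± 0.08) and the ephrin receptor gene EPHB1 (0.42 ± 0.07) were positive as well. SEMA3F, SEMA3B and the ephrin gene EFNA1 were the negative members.

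DNA replication genes had 14 positive and 0 negative calls of 42 (33.3% positive against 8.92% of all genes). The interactions were small, with a median of 0.104. MCM6, a subunit of the replicative helicase, was at 93.6, 94.8, 93.2, 94.7 and 89 CPM with dhelix FOXP2 + CHIR and 74.1, 72.9, 71.1, 73.2 and 75 CPM with WT FOXP2 + CHIR. When CHIR was absent it stood at 121, 116, 116, 122 and 118 CPM with dhelix FOXP2 and 122, 118, 116, 108 and 122 CPM with WT FOXP2. The constructs were apart with CHIR and overlapped without it (interaction 0.33 ± 0.05, edgeR adjusted p = 2.91e-05). RRM2, a subunit of ribonucleotide reductase, had the same interaction with the other arm separated, at 181 ± 8.13, 180 ± 7.74, 276 ± 5.83 and 344 ± 3.78 CPM in the 4 groups. MCM4 and MCM10 were at 0.19 ± 0.04 and 0.26 ± 0.05. The count of positive replication genes moved with processing. It was 2 without a filter on low counts (659 of 39995 over all genes) and 10 with upper-quartile scaling (1292 of 18485). With length and GC offsets it was 21 of 41 (1788 of 17939 over all genes). It was 6 without dhelix FOXP2 + CHIR replicate 2, WT FOXP2 + CHIR replicate 2, dhelix FOXP2 replicate 3, dhelix FOXP2 replicate 5 or WT FOXP2 replicate 1, and 8 without WT FOXP2 replicate 3, with 0 negative in each of these settings. Of 36 mitotic genes 3 were positive and 5 negative (8.33% and 13.9%, against 8.92% and 5.29% of all genes). The positive share was thus near that of all genes. Without WT FOXP2 replicate 3 there were 8 negative. CENPA, the centromeric histone H3 variant, averaged 28.5 ± 2.03, 29 ± 0.511, 61.1 ± 1.56 and 45.5 ± 1.72 CPM in the 4 groups (interaction -0.45 ± 0.06, edgeR adjusted p = 1.96e-06).

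Interferon-stimulated genes gave 7 positive and 0 negative of 31 (22.6% positive against 8.92% of all genes, median 0.154). Over no filter, upper-quartile scaling, and length and GC offsets 5 to 11 were positive. All genes had 659 of 39995, 1292 of 18485 and 1788 of 17939 positive there. Of the interferon-stimulated genes 4 were positive without dhelix FOXP2 + CHIR replicate 3 or 4, WT FOXP2 + CHIR replicate 2 or 3, or WT FOXP2 replicate 1 or 5. OAS3, an antiviral oligoadenylate synthetase, was at 21.7, 19.6, 20.1, 20.4 and 21.9 CPM with dhelix FOXP2 + CHIR and 13.4, 10.8, 10.2, 10.5 and 11.7 CPM with WT FOXP2 + CHIR. It was at 18.8, 18.8, 23.2, 19.1 and 21.2 CPM with dhelix FOXP2 and 20.8, 17.8, 19.2, 17.7 and 17.1 CPM with WT FOXP2. The WT FOXP2 + CHIR libraries were the low ones and the other 3 groups overlapped in part (interaction 0.73 ± 0.10, edgeR adjusted p = 5.23e-06). SAMD9 and SAMD9L, paralogous antiviral factors, were at 1.14 ± 0.20 and 1.10 ± 0.27 with levels under 10 CPM. Heat shock genes had 6 positive calls and 1 negative of 18 (33.3% and 5.56%). Among the positive ones were the chaperone gene HSPA8 (0.18 ± 0.04) and its cofactor DNAJB1 (0.24 ± 0.05). Without a filter on low counts 0 heat shock genes were positive and 3 negative (659 and 1510 of 39995 over all genes). Only 3 were positive without dhelix FOXP2 + CHIR replicate 2, WT FOXP2 + CHIR replicate 2, dhelix FOXP2 replicate 3, dhelix FOXP2 replicate 5 or WT FOXP2 replicate 1. Of 29 immediate early and MAPK feedback genes 5 were positive (17.2%) and 0 negative, with a median near 0 (-0.00551). The 5 were FOS, a subunit of AP-1 (0.52 ± 0.10), EGR1, PHLDA1, KLF6 and the phosphatase gene DUSP5. KRT75, a type II keratin gene outside these lists, was among the 12 largest positive interactions at 1.06 ± 0.12, at 113 ± 8.07, 78.8 ± 3.34, 15.7 ± 1.03 and 22.9 ± 1.73 CPM in the 4 groups.

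**Figure D4:**
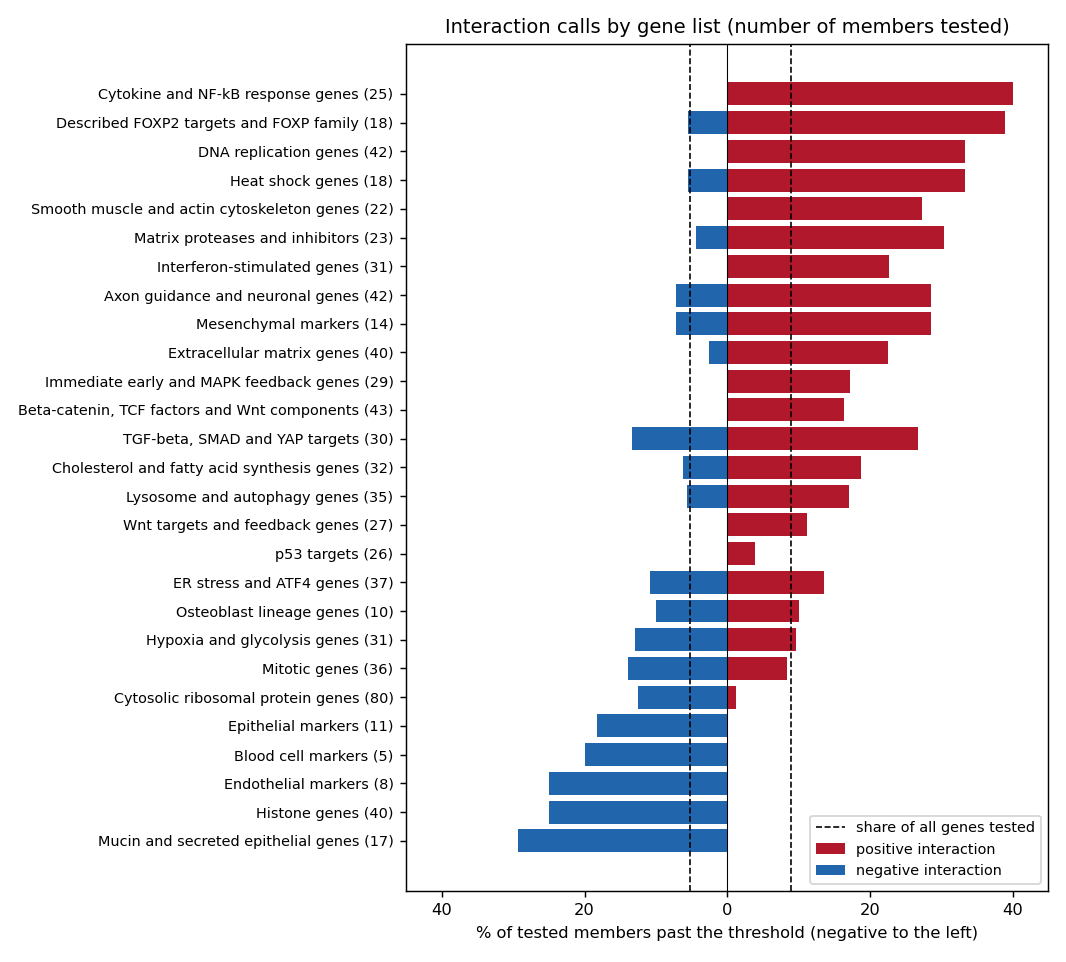
Share of tested members past the interaction threshold in each of 27 gene lists, positive to the right and negative to the left, with dashed lines at the shares of all genes tested (8.92% and 5.29%). Cytokine and NF-κB genes lead on the positive side (40%), and mucin (29.4%), histone (25%) and endothelial marker (25%) lists on the negative side, the last with only 8 members.

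By p-value, the leading negative interactions included genes that dhelix FOXP2 raised in both arms but by a smaller fold in the presence of CHIR, a class of 120 of the 977 negative calls. MUC5AC, a secreted gel-forming mucin, was at 146, 166, 148, 131 and 163 CPM with dhelix FOXP2 + CHIR and 44.8, 56.6, 52.3, 54 and 57.7 CPM with WT FOXP2 + CHIR. Without CHIR it was at 34.6, 46.1, 41.8, 38 and 40.3 CPM with dhelix FOXP2 and 3.75, 5.13, 5.37, 6.49 and 4.94 CPM with WT FOXP2. The dhelix FOXP2 + CHIR libraries were highest and the WT FOXP2 libraries lowest, with the other 2 groups overlapping between them. The difference was 1.51 ± 0.07 with CHIR and 2.95 ± 0.10 without, and the interaction -1.44 ± 0.13 (edgeR adjusted p = 1.12e-09). In CPM rather than log2 units the gap between the constructs was wider with CHIR, by 62.7 ± 6.97 CPM (SE). Of the 123 negative interactions of at least 2-fold, 22 had such a positive difference of differences in CPM, and over all 977 negative calls 47 did. MUC5AC was at 0.0494 ± 0.0519 CPM with CHIR and no FOXP2 plasmid and 0.0473 ± 0.0355 CPM in mock cells.

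MAL, a membrane protein of apical sorting and of myelin, had the same profile. It was at 81, 90.2, 89.5, 87 and 91.4 CPM with dhelix FOXP2 + CHIR and 27.2, 36, 29.5, 31.3 and 30.9 CPM with WT FOXP2 + CHIR. It was at 31.4, 38.6, 38.2, 32.5 and 36.9 CPM with dhelix FOXP2 and 4.05, 6.48, 4.87, 5.54 and 4.46 CPM with WT FOXP2 (interaction -1.29 ± 0.12, edgeR adjusted p = 8.45e-10). Again the groups with only 1 of the 2 changes overlapped each other and nothing else. MLC1, a membrane protein of astrocytes, was at 168, 179, 171, 158 and 180 CPM with dhelix FOXP2 + CHIR and 97.2, 105, 103, 99.5 and 103 CPM with WT FOXP2 + CHIR. It was at 102, 125, 123, 113 and 110 CPM with dhelix FOXP2 and 26.9, 35.6, 35, 37.6 and 30.6 CPM with WT FOXP2, with the smallest p of the negative calls (interaction -1.03 ± 0.09, edgeR adjusted p = 1.46e-10). On the CPM scale the interaction was 26.4 for MAL and -11.6 for MLC1.

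The non-coding RNA LINC00659 (-1.52 ± 0.16), the sarcalumenin gene SRL (-1.50 ± 0.15) and C19orf77 (-1.54 ± 0.16) had the same profile, in which only the WT FOXP2 + CHIR and dhelix FOXP2 groups overlapped, with means of 35.8, 13.4, 14.1 and 1.83 CPM for LINC00659 and 12, 7.05, 6.46 and 1.35 CPM for SRL. NEU4, a sialidase (-1.36 ± 0.22), and MEGF6 (-1.48 ± 0.16) differed from them in that CHIR lowered them under dhelix FOXP2 (-0.38 ± 0.12 and -0.40 ± 0.10) and raised them under WT FOXP2 (0.98 ± 0.18 and 1.08 ± 0.13). In the mucin and secreted epithelial list 5 of 17 were negative and 0 positive (29.4% against 5.29% of all genes, median -0.111): the mucin genes MUC5AC, MUC5B and MUC4, and the membrane protein genes MAL and MLC1. The mucin list, like the others, was drawn up with earlier results of these data known, so its count is not independent of them. Of 8 endothelial markers 2 were negative, VWF, which encodes von Willebrand factor (-0.92 ± 0.18; 41.2 ± 3.29, 20 ± 3.48, 7.45 ± 0.794 and 1.88 ± 0.454 CPM), and the receptor gene TIE1. INSIG1, a brake on sterol synthesis, was higher with dhelix FOXP2 in both arms and negative as well (-0.33 ± 0.08). It averaged 127 ± 10.2, 62.1 ± 3.84, 50.4 ± 2.68 and 19.7 ± 0.982 CPM. On the CPM scale the gap widened with CHIR for INSIG1, VWF and LINC00659, by 33.9 ± 5.03, 15.6 ± 2.18 and 10.1 ± 1.53 CPM (SE). That interaction was smaller than its SE for SRL (-0.127 ± 0.616) and C19orf77 (-0.0374 ± 0.717). It was negative for NEU4 (-2.76 ± 0.532), MEGF6 (-5.3 ± 0.599) and TIE1 (-4.9 ± 0.821).

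Histone and ribosomal protein genes made up the other negative groups, with smaller values. Of 40 histone genes tested 10 were negative and 0 positive (25% negative against 5.29% of all genes, median -0.182). With CHIR 19 of the 40 were lower with dhelix FOXP2 and 5 higher (14% and 16.6% of all genes). Without CHIR 7 were lower and 8 higher (18.7% and 16.9% of all genes). HIST1H4I, an H4 histone gene, was at 1.96, 1.93, 2.23, 2.09 and 2.08 CPM with dhelix FOXP2 + CHIR and 5.27, 5.4, 4.69, 4.01 and 4.16 CPM with WT FOXP2 + CHIR. In cells without CHIR the level was 2.12, 1.43, 1.56, 1.89 and 2.27 CPM with dhelix FOXP2 and 1.23, 2.04, 1.62, 1.63 and 2.13 CPM with WT FOXP2. Only the WT FOXP2 + CHIR libraries stood apart, above the other 3 groups (interaction -1.26 ± 0.20, edgeR adjusted p = 3.42e-05). HIST1H2BJ was at -0.38 ± 0.08 and HIST1H3D at -0.77 ± 0.16. Histone genes are near-identical within families, and most of their transcripts lack a poly(A) tail, whereas the libraries were prepared with an mRNA kit, so single values are uncertain. With length and GC offsets, which covered only the 29 histone genes with a length, 3 were positive and 6 negative. Over all genes 1788 and 1526 of 17939 were in that setting. Of 80 cytosolic ribosomal protein genes 10 were negative and 1 positive (12.5% and 1.25%, against 5.29% and 8.92% of all genes). Their median was -0.0831. With CHIR 33 of the 80 were higher with dhelix FOXP2 (16.6% of all genes), and without CHIR 62 were (16.9% of all genes). RPL35, a protein of the large subunit, averaged 311 ± 13.5, 310 ± 14.5, 325 ± 7.70 and 250 ± 26.4 CPM in the 4 groups (interaction -0.37 ± 0.07, edgeR adjusted p = 0.000451; 0.0705 with length and GC offsets). The number of negative ribosomal protein genes was 29 without a filter on low counts (1510 of 39995 over all genes). With upper-quartile scaling it was 17 (1215 of 18485 over all genes). It was 16 without WT FOXP2 + CHIR replicate 1, 18 without dhelix FOXP2 replicate 5 or WT FOXP2 replicate 3, and 19 without WT FOXP2 replicate 1, and ribosomal protein genes share reads with many processed pseudogenes.

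Transcript length moved with the sign of the interaction. Genes with a positive interaction had a median longest transcript of 5591 bases and a median GC content of 45.8%, those with a negative one 2505 bases and 53.9%, and genes without a call 3026 bases and 48.6% (GENCODE v29, 17939 genes with a length). The median interaction was -0.0725 in the decile of shortest transcripts and 0.133 in the decile of longest, and across genes the Spearman rho with length was 0.247. Positive calls took 1.45% of the shortest decile and 26.4% of the longest. Both arms sloped, in opposite directions: the longest decile had a median of 0.0607 with CHIR and -0.0619 without. By library, the median deviation of the longest decile minus that of the shortest was -0.101 to -0.0613 with dhelix FOXP2 + CHIR, -0.192 to -0.0976 with WT FOXP2 + CHIR, 0.00633 to 0.0705 with dhelix FOXP2 and 0.116 to 0.182 with WT FOXP2, so it ordered the 4 groups with overlap only between the CHIR groups. The median length was 5788 bases for the extracellular matrix list, 6182 for the axon guidance list and 6574 for the FOXP2 target list. These lists were 22.5%, 28.6% and 38.9% positive. Of all genes in the decile from 5552 to 7233 bases 18.8% were positive. Ribosomal protein genes had a median of 1842 bases, the cytokine and NF-κB list 2294 and the replication list 3208. For histone genes the check covers only a part of the list, because 29 of 40 had a length (median 1863 bases). The part of length in the result was not tested. Offsets per library for length and GC content left 3314 calls, 1788 positive and 1526 negative, with THBS1 at 0.66, TRAF1 at 0.99, BIRC3 at 1.26 and MUC5AC at -1.59.

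**Figure D5:**
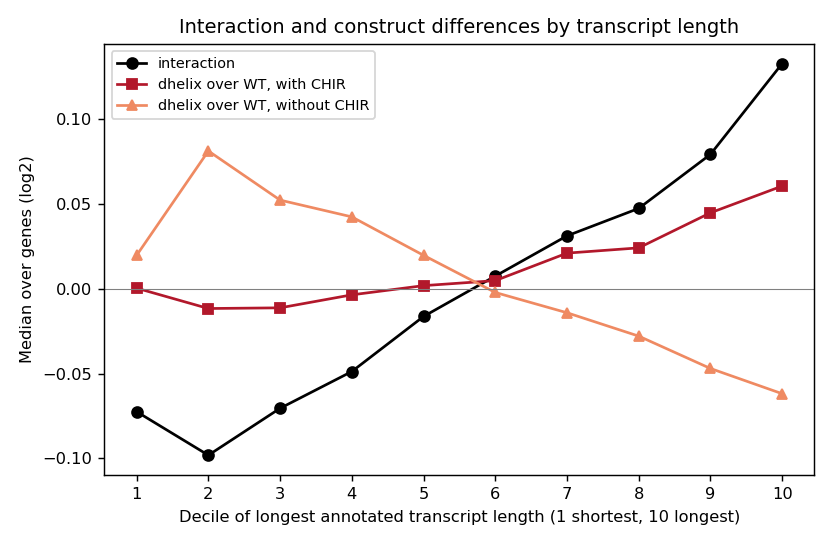
Median over genes of the interaction and of the difference between dhelix FOXP2 and WT FOXP2 with and without CHIR (log2), by decile of longest annotated transcript length from shortest to longest. The interaction rises from a median of -0.0725 in the shortest decile to 0.133 in the longest, and the arms cross in the middle.

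The same interaction can be read as a difference in the response to CHIR between the constructs. CHIR went with calls in 11681 genes (63.2%) under dhelix FOXP2, 34.1% of all genes higher and 29.1% lower. Under WT FOXP2 it went with calls in 12005 genes (64.9%), 34.8% higher and 30.2% lower. Among positive interactions 556 genes fell with CHIR under both constructs, and 319 rose under both. A further 382 fell with CHIR under WT FOXP2 without a call under dhelix FOXP2, 278 rose under dhelix FOXP2 without a call under WT FOXP2, and 106 rose under dhelix FOXP2 and fell under WT FOXP2. BIRC3 and IL8 were of this last kind, at 0.91 ± 0.08 and 0.90 ± 0.07 with dhelix FOXP2 and -0.33 ± 0.08 and -0.25 ± 0.06 with WT FOXP2. Among negative interactions 322 genes rose with CHIR under both constructs and 145 fell under both, while 266 rose under WT FOXP2 without a call under dhelix FOXP2, 190 fell under dhelix FOXP2 without a call under WT FOXP2, and 49 fell under dhelix FOXP2 and rose under WT FOXP2.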

How the data were processed

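RNA from U2OS cells was sequenced in 30 libraries. The authors deposited raw counts per gene for 57373 genes. Per the submitters' processing notes, STAR 2.6.1a, featureCounts, Subread and DESeq2 were used with the hg19 build. The gene annotation, strandedness and counting unit used are not stated there or in the labels. Per the labels' protocols, libraries came from a stranded mRNA kit, paired-end, on 2 flow cells, which are not matched to libraries.

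The counts were fitted with edgeR 4.0.16 in R 4.3.3 (limma 3.58.1), using TMM scaling, a robust quasi-likelihood fit with a mean per group over all 30 libraries, and contrasts for the interaction, both arms and both CHIR effects. The default filter of edgeR kept 18485 genes holding 99.9% of counts. Benjamini-Hochberg adjustment covered all of them, with a threshold of 0.05. Any 2 libraries of a group differed by more than sampling noise (lowest chi-square per gene 1.39). The code was checked on simulated data.

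Named genes were FOXP2, CTNNB1, AXIN2 and LEF1, the 12 largest interactions per direction at 1 CPM or more in each group, the 3 smallest p-values per direction, the 3 smallest per direction under 1 CPM, and up to 4 members of each of 27 lists. Other members of lists were named after their values were seen. The comparison and the lists were chosen with earlier results of these data known. Alternatives were DESeq2 size factors and the DESeq2 1.42.0 Wald test, upper-quartile scaling, other filters, the replicate number as a block, FOXP2 left out of library sizes or used as a covariate, a fit of 20 libraries, and libraries left out. Offsets for length and GC content were chosen after seeing the data.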

Additional observations from a re-analysis of the deposited data

Results flagged for a closer look

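The difference between the constructs differed between cells with and without CHIR in 2626 genes by the interaction test (edgeR, adjusted p under 0.05). Among the 121 named genes, 35 of 484 groups of 5 libraries (7.23%) had a library apart from the other 4 by Dixon's ratio (critical value 0.71), where chance gives about 5%. Of these, 6 were dhelix FOXP2 replicate 5 and 5 were WT FOXP2 + CHIR replicate 4, and of the other libraries 12 had 1 to 3 and 6 had none.

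Structural RNA accounted for 9. RN7SL2 was at 88.9 CPM in dhelix FOXP2 replicate 5 and 65 CPM in WT FOXP2 + CHIR replicate 4. In the same 2 libraries RN7SL1 was at 173 and 107 CPM, RN7SK at 58.9 and 33.9 CPM, and RNA28S5 at 6230 and 4360 CPM. RN7SL1 was also high in dhelix FOXP2 + CHIR replicate 5, at 14.8 CPM.

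Among dhelix FOXP2 + CHIR libraries, replicate 5 stood apart for TRAF1 at 91.2 CPM and MCM6 at 89 CPM, and replicate 2 for VWF at 46.9 CPM and VLDLR at 33.8 CPM. Among WT FOXP2 + CHIR libraries, replicate 1 stood apart for PFKFB4 at 25.9 CPM, RPL37 at 638 CPM and SAMD9 at 2.84 CPM, and replicate 2 for H1F0 at 1030 CPM and AURKA at 170 CPM. Replicate 3 of that group was apart for NUPR1 at 19.1 CPM, and replicate 4 for TIMP2 at 45.1 CPM.

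Among dhelix FOXP2 libraries, replicate 2 stood apart for NUPR1 at 11.1 CPM and INSIG1 at 55 CPM, and replicate 3 for SRL at 7.22 CPM, HSPB8 at 84.4 CPM and BIRC3 at 23.3 CPM. Replicate 4 was apart for CLDN4 at 9.9 CPM, and replicate 5 for LINC00578 at 1.07 CPM and AURKA at 244 CPM. Among WT FOXP2 libraries, replicate 1 stood apart for CLDN4 at 4.48 CPM and VLDLR at 27.3 CPM, and replicate 2 for TNFRSF10B at 148 CPM. Replicate 3 was apart for RUNX2 at 9.68 CPM and CDK15 at 1.69 CPM, and replicate 4 for SCD at 130 CPM and ACACA at 132 CPM.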

How the results depend on the processing

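The 2626 interaction calls (1649 positive, 977 negative) became 4291 with 2032 negative in a fit of the 20 libraries alone, 4015 with 1886 negative with the FOXP2 level as a covariate, and 4124 (2482 positive, 1642 negative) with the DESeq2 Wald test. Without a filter on low counts there were 659 positive and 1510 negative calls, and with length and GC offsets 1526 negative; the cause was not tested. In the fit of 20 libraries with the FOXP2 covariate, calls for CHIR numbered 2602 under dhelix FOXP2 and 4074 under WT FOXP2. The positive share of calls was 62.8%, against 51.5% with upper-quartile scaling, 50.9% with a minimum mean of 1 CPM and 30.4% without a filter. Leaving out 1 library gave 2050 to 2603 interaction calls, 1074 to 1594 positive (1074 without WT FOXP2 + CHIR replicate 2) and 804 to 1125 negative. The same gave 5074 to 5623 calls between constructs with CHIR, 5874 to 6608 without CHIR, 11279 to 11788 for CHIR under dhelix FOXP2 and 11568 to 12078 under WT FOXP2. The sign turned for AXIN2 without a filter (-0.0166), with the covariate (-0.0384) and without dhelix FOXP2 + CHIR replicate 1 (-0.0374), WT FOXP2 + CHIR replicate 1 (-0.0123) or WT FOXP2 replicate 1 (-0.00541), and leaving out 1 library gave -0.0374 to 0.112 in all. It also turned for LEF1 with the covariate (-0.0193), MKI67 with length and GC offsets (-0.042) and RNA28S5 without both libraries rich in structural RNA (0.318). Of the 121 named genes, 87 kept their direction and side of the threshold in every setting. Deviations of same-numbered libraries correlated weakly (r of -0.043 to 0.075 over 30 pairs). These r lay under the 0.1 set for pairing, so the libraries were not treated as pairs. Of 20 libraries, 8 correlated best with their own number, and the number expected by chance was not worked out. A replicate block gave 2709 calls, without RN7SK (edgeR adjusted p = 0.0613) and RNA28S5 (adjusted p = 0.183). Depth limits calls of genes under about 1 CPM.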

Other observations

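Of 32 cholesterol and fatty acid synthesis genes 6 were positive and 2 negative (18.8% and 6.25%, against 8.92% and 5.29% of all genes), with the fatty acid enzyme genes ACACA at 0.22 ± 0.04 and ACLY at 0.19 ± 0.04. Without a filter on low counts these 2 had adjusted p = 0.153 and 0.247 (edgeR). In that setting 1 gene of the list was positive and 3 negative, and over all genes 659 and 1510 of 39995 were. The list had 3 positive calls without dhelix FOXP2 + CHIR replicate 2, WT FOXP2 + CHIR replicate 2, dhelix FOXP2 replicate 5 or WT FOXP2 replicate 1, and 2 without WT FOXP2 replicate 3. Of 35 lysosome and autophagy genes 6 were positive and 2 negative (17.1% and 5.71%), and without a filter 2 were positive and 4 negative. The protease gene CTSS at 1.08 ± 0.22 and the autophagosome gene MAP1LC3B at 0.29 ± 0.06 led the list. Of 31 hypoxia and glycolysis genes 3 were positive and 4 negative (9.68% and 12.9%), so the positive share was near that of all genes. Among the negative ones were PFKFB4, a regulator of glycolysis (-0.57 ± 0.10), and the mitophagy receptor gene BNIP3 (-0.33 ± 0.07). Without a filter 0 of the 31 were positive and 5 negative. Of 37 ER stress and ATF4 genes 5 were positive and 4 negative (13.5% and 10.8%), with the stress-induced genes DDIT4 at -0.47 ± 0.08 and NUPR1 at -0.60 ± 0.11. That list had 3 positive calls without dhelix FOXP2 + CHIR replicate 2, WT FOXP2 + CHIR replicate 2, dhelix FOXP2 replicate 3, or WT FOXP2 replicate 1 or 3. Without a filter 2 of the 37 were positive and 6 negative. Of 26 p53 targets 1 was positive and 0 negative, and this gene, TNFRSF10B, a death receptor, was at 0.14 ± 0.04 and lost its call in 18 of 31 settings (highest adjusted p = 0.724). Without a filter 0 of the 26 were positive and 5 negative.

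Among lineage markers, 4 of 14 mesenchymal genes were positive and 1 negative (28.6% and 7.14%, against 8.92% and 5.29% of all genes). The N-cadherin gene CDH2 was at 0.34 ± 0.05, VIM at 0.21 ± 0.04 (edgeR adjusted p = 0.102 without a filter) and S100A4 at -0.77 ± 0.22. Of 11 epithelial markers 2 were negative, the claudin gene CLDN4 (-0.57 ± 0.16) and EPCAM (-0.46 ± 0.14). Of 10 osteoblast lineage genes 1 was positive, TNFRSF11B (0.30 ± 0.09), and 1 negative, RUNX2 (-0.26 ± 0.09), which lost their calls in 8 and 12 of 31 settings. Of 5 blood cell markers CD3D, a T cell receptor subunit gene, was negative (-0.66 ± 0.19).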
